A study of Mus musculus with 2 samples.

Results

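A set of 10 genes that mark the luminal progenitor cell of the mouse mammary gland was followed in TUBO cells, out of 31017 genes in the count table. The set was given as a list of names, and all 10 names (Cd14, Kit, Aldh1a3, Prom1, Ltf, Tspan8, Cd55, Wfdc18, Ly6a and Ly6d) were found in the table. TUBO is a mouse mammary cancer line from a tumour of a BALB/c mouse that carried a rat Her2/neu transgene under the mouse mammary tumour virus promoter. The cells were untreated and grown flat on plastic, and RNA was sequenced from 1 group with 2 libraries, which carried 35453278 counts in replicate 1 and 34098259 counts in replicate 2. There is no second condition, and what was measured is a level for each gene. Whether the replicates came from separate cultures is not said in the labels, and their spread, with any p-value from it, may be technical.

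Luminal progenitors are the cells of the milk duct lining that divide to give the milk-secreting alveolar cells, and they are regarded as close to the cell of origin of several mammary cancers. They are isolated by surface proteins such as the growth factor receptor KIT and the lipopolysaccharide co-receptor CD14, and they already make some proteins that are later secreted into milk. Of the 10 genes, Ltf and Wfdc18 encode secreted proteins, Cd14, Kit, Prom1, Tspan8, Cd55, Ly6a and Ly6d encode proteins of the cell surface, and Aldh1a3 encodes a cytosolic enzyme that makes retinoic acid. Not all of them are particular to luminal progenitors in the mouse gland. Prom1 and Ly6a have also been used to mark hormone-sensing luminal cells, and Tspan8 to mark a quiescent basal stem cell.

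The 10 genes fell into 3 ranges. Wfdc18, Cd14, Ltf, Aldh1a3 and Kit lay between 61.1 and 148 CPM (the usual scaling of a count to the size of its library, mean of both libraries), Cd55 and Prom1 lay at 6.94 and 1.61 CPM, and Tspan8, Ly6a and Ly6d had no count in either library. Detection, taken as 1 CPM or more in both libraries, thus held for 7 of the 10 genes, against 37.7% of all genes in the table. No count was found for 3 of the 10, against 41.0% of all genes. The median of the 10 genes was 34.0 CPM, and that of all genes was 0.0730 CPM. The genes were picked as markers with earlier results of these data known, so neither share is a test. In a bulk sample, fewer expressing cells and less RNA per cell cannot be told apart.

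**Figure D1:**
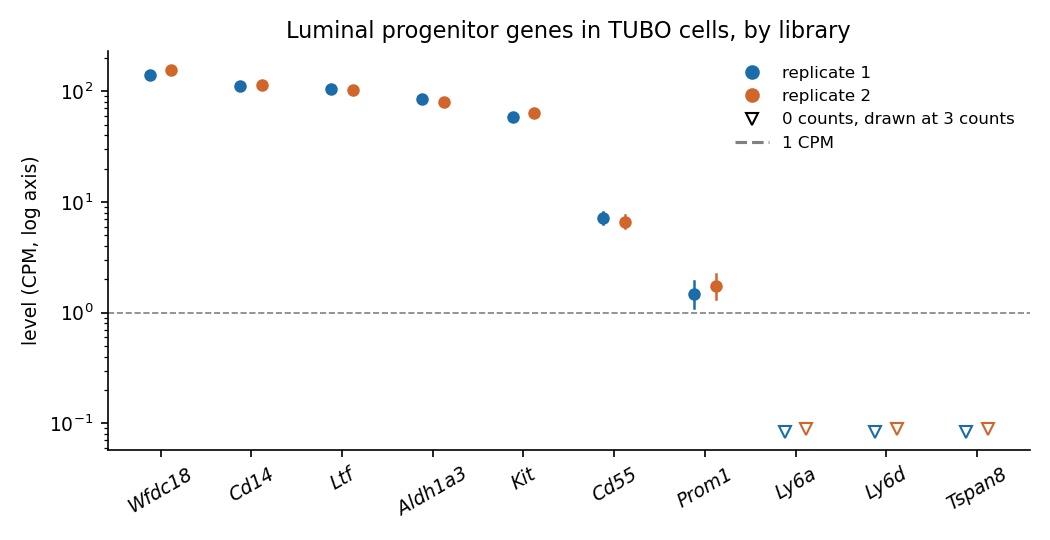
Level of each of the 10 genes in replicate 1 and replicate 2, in CPM on a log axis, with exact 95% Poisson intervals of the counts as vertical lines. Wfdc18, Cd14, Ltf, Aldh1a3 and Kit stand above 50 CPM in both libraries, Cd55 and Prom1 stand lower, and Ly6a, Ly6d and Tspan8, with 0 counts, are drawn as open triangles at the level of 3 counts.

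Wfdc18 was the most abundant of the 10 genes. It lies on chromosome 11 (83709015 to 83711348, GRCm38) and encodes a small secreted protein of the whey acidic protein family. Its level was 141 CPM in replicate 1 and 155 CPM in replicate 2 (148 ± 10.4 CPM, mean ± SD, n = 2), which placed it above 95.4% of all genes and above 87.7% of the detected ones. Of 21 other measured genes of the family, Wfdc2 (68.7 ± 4.22 CPM) and the protease inhibitor gene Slpi (5.75 ± 0.0803 CPM) were detected and 12 had no count. Wap itself, the whey acidic protein of milk, had 3 and 5 counts. Divided by exonic length, Wfdc18 was 2.01 ± 0.0181 times as abundant as Wfdc2 (n = 2), with 2.00 and 2.02 in the separate libraries. The nearest protein-coding neighbours of Wfdc18 are the family members Wfdc17, with 0 and 1 counts, and Wfdc21, with 3 and 1 counts. The closest detected genes were Ccl9 (mean 2.11 CPM) at a distance of 130.4 kb and Heatr6 (mean 55.1 CPM) at 42.3 kb.

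Wfdc18 was also the single gene of the set whose level differed between the libraries beyond counting error. It was 1.10-fold higher in replicate 2 than in replicate 1 (log2 ratio 0.14; adjusted p = 2.80e-05, two-sided exact binomial test, Benjamini-Hochberg over 13336 genes). Of all genes tested 8.13% passed, and 3.67% passed with the higher level in replicate 2, against 1 of the 7 genes of the set that could be tested. Kit came next (log2 ratio 0.12, adjusted p = 0.0712), and the others had adjusted p from 0.267 to 0.842. The binomial test covers counting error only. An edgeR exact test with an estimated dispersion gave Wfdc18 an adjusted p of 0.968 and called none of the 7 genes. That dispersion was estimated over all genes tested from the differences between these same 2 libraries, that of Wfdc18 among them. After adjustment the difference of Wfdc18 did not stand out from that spread. With 1 library a side, no spread apart from the tested differences is available.

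The sequences upstream of the gene starts are shown for the 4 detected genes whose RefSeq promoter reaches at least 100 bases upstream of the GENCODE start as well, from the highest level to the lowest. They are the bases before both starts (RefSeq, GRCm38.p6), 5′ to 3′ on the strand of the gene, with CG dinucleotides and any TATAAA in capitals. Wfdc18 is at chr11:83708754-83709003 on the plus strand, Ltf at chr9:111019042-111019270 on the plus strand, Kit at chr5:75574737-75574915 on the plus strand and Cd55 at chr1:130462745-130462994 on the minus strand.
Wfdc18: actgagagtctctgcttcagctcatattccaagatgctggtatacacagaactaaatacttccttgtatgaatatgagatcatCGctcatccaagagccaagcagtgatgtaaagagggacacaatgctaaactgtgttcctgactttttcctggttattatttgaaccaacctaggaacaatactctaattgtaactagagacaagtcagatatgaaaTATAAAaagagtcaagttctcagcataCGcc
Ltf: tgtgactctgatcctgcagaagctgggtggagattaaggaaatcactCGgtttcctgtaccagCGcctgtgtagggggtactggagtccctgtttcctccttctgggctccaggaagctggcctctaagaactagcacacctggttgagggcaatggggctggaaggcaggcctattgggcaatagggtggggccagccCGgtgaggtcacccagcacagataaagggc
Kit: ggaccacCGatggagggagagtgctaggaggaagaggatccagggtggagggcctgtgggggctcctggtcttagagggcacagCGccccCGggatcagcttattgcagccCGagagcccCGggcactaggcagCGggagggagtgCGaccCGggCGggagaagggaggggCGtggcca
Cd55: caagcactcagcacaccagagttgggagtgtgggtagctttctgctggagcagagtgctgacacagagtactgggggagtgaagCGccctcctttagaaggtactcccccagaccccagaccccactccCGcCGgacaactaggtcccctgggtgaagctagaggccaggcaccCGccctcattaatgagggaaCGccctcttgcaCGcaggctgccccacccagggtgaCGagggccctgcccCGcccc
Over the full 250 bases upstream of the RefSeq start, the Wfdc18 promoter was poor in CG, with 2 dinucleotides and a GC content of 38.4%. It was the only one of the 6 promoters matched for the set that held TATAAA on either strand, 31 bases before the start, a motif found in 13.0% of 27025 promoters of the same length. The Kit promoter stood at the other end, with 17 CG and a GC content of 70.8%. The Cd55 promoter held 8 CG, that of Prom1 9, and those of Ltf and Tspan8 4 each, beside a median of 6 over all promoters. The windows of Prom1 and Tspan8 lie within their GENCODE genes, past the gene start, so they may not stand for the region upstream of it. Wfdc18, at the top of the order of levels, had the fewest CG of the 6. Whether the number of CG follows the level was not tested. The ETS core GGAA, counted on both strands with overlaps, occurred 5 times in Wfdc18 and in Ltf, 3 times in Prom1, 2 times in Tspan8 and once in Kit and in Cd55, and it was found in 93.4% of all promoters. The SOX core ACAAT occurred 3 times in Wfdc18 and in none of the other 5, and in 28.3% of all promoters. These matches describe the letters of the windows and were not tested for binding.

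Cd14 was second, at 112 CPM in replicate 1 and 114 CPM in replicate 2 (113 ± 1.03 CPM, n = 2; chromosome 18, 36725067 to 36726798). It encodes the protein that hands bacterial lipopolysaccharide to the receptor complex of TLR4 and MD-2, which is the product of Ly96. Of 18 other measured genes of the pathway 14 were detected, with Tollip, a negative regulator (171 ± 0.479 CPM), the kinase gene Irak1 (154 ± 4.01 CPM), the kinase gene Map3k7 (149 ± 2.66 CPM) and its adaptor Tab2 (146 ± 7.57 CPM) at the top. The receptor gene Tlr4 stood at 54.8 ± 0.555 CPM, Ly96 at 5.27 ± 0.348 CPM and the lipopolysaccharide-binding protein gene Lbp at 86.8 ± 4.61 CPM. The adaptor gene Myd88 stood at 16.7 ± 0.653 CPM and Ticam1 at 16.3 ± 0.404 CPM, while the bridging adaptor gene Ticam2 had 1 and 0 counts. Per length, Cd14 was 6.62 ± 0.127 times as abundant as Tlr4 (n = 2), and 5.13 ± 0.0986 times by the longest transcripts.

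Ltf, the gene of the iron-binding milk protein lactoferrin, followed at 105 CPM in replicate 1 and 103 CPM in replicate 2 (104 ± 1.70 CPM, n = 2; chromosome 9, 111019271 to 111042767). Its relative Trf, the gene of serum transferrin, was higher. Per length, Ltf reached 0.549 ± 0.0292 of the level of Trf, and lay below it in both libraries. Of 14 other genes of the transferrin family and of milk defence proteins 7 were detected. Those of 100 CPM or more were the siderophore carrier gene Lcn2 (2803 ± 24.1 CPM), the milk fat globule gene Mfge8 (649.7 ± 27.3 CPM), the transferrin receptor gene Tfrc (501 ± 0.359 CPM), the peptidoglycan-binding protein gene Pglyrp1 (189.6 ± 2.01 CPM) and Trf (182 ± 12.7 CPM). The lactoperoxidase gene Lpo (1.12 ± 0.286 CPM) and the antibody carrier gene Pigr (1.98 ± 0.374 CPM) were close to 1 CPM, and the lysozyme gene Lyz2 had no count. Ltf had 4 undetected protein-coding genes on its left, with at most 1 count in a library, and the detected gene Ccrl2 at 11.7 kb on its right.

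Aldh1a3 stood at 84.6 CPM in replicate 1 and 80.4 CPM in replicate 2 (82.5 ± 2.95 CPM, n = 2; chromosome 7, 66390890 to 66427517). Its product oxidises retinal to retinoic acid, and it was the only detected one of the 3 retinaldehyde dehydrogenase genes of that group. Aldh1a1 was at 0.0575 ± 0.00202 CPM, below the level of 3 counts, and Aldh1a2 had no count. Among 20 other aldehyde dehydrogenase genes 11 were detected, led by the mitochondrial enzyme gene Aldh2 (368 ± 16.1 CPM), Aldh3a2 (206 ± 2.05 CPM) and Aldh18a1 (71.6 ± 4.01 CPM). Per length, Aldh1a3 reached 0.249 ± 0.00198 of the level of Aldh2. Genes on both sides of the retinal step were detected. The retinol dehydrogenase gene Rdh10 (43.7 ± 0.680 CPM) stands before it. Rdh11 (90.4 ± 3.94 CPM) was also detected, and in which direction its product works between retinol and retinal was not tested. The receptor genes Rarg (104 ± 1.93 CPM) and Rxra (94.9 ± 4.80 CPM) and the carrier gene Fabp5 (114 ± 3.79 CPM) stand after it. In all, 11 of 22 other retinoid genes were detected, and 5 of the 22, including Lrat, Rbp4 and Crabp1, had no count. Of the enzymes that clear retinoic acid, Cyp26b1 was at 4.37 ± 0.621 CPM and Cyp26a1 and Cyp26c1 were under 1 CPM.

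Kit, the receptor tyrosine kinase gene of luminal progenitors and of blood, germ and pigment cell precursors, was detected together with its ligand. Kit stood at 58.6 CPM in replicate 1 and 63.6 CPM in replicate 2 (61.1 ± 3.59 CPM, n = 2; chromosome 5, 75574916 to 75656722). The ligand gene Kitl was at 63.7 ± 0.443 CPM. Per length of the union of exons, Kit reached 0.636 ± 0.0418 of the level of Kitl. When the longest transcript of each gene was taken instead, the ratio was 1.03 ± 0.0679, with 0.985 in replicate 1 and 1.08 in replicate 2. By that length neither gene was higher in both libraries, so their order depends on the length used. Of 18 other genes of KIT signalling 16 were detected and none lacked a count. The kinase gene Src (224 ± 1.62 CPM), the phosphatase gene Ptpn11 (218 ± 2.07 CPM), the lipid kinase subunit gene Pik3r1 (153 ± 1.2 CPM) and the ubiquitin ligase gene Cbl (105 ± 11.1 CPM) were highest. The neighbours of Kit on chromosome 5 are also receptor kinase genes. Pdgfra on its left had 245 and 285 counts, and Kdr on its right had no count.

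Cd55 and Prom1 were low. Cd55, which encodes a membrane protein that speeds the decay of complement convertases, had 258 and 225 counts, or 7.24 CPM in replicate 1 (95% Poisson interval 6.38 to 8.18) and 6.63 CPM in replicate 2 (5.80 to 7.56). It lies at 130439027 to 130462744 on chromosome 1. Its tandem copy Cd55b, the main partner of the 9.12% of its 50-base stretches that also occur in other transcripts, had no count, so reads that match both are uncertain. Per length, Cd55 reached 0.265 ± 0.0246 of the level of Cr1l, which encodes the rodent regulator Crry (56.0 ± 1.77 CPM), and 0.153 ± 0.0142 of it by the longest transcripts. Clu, the gene of the secreted regulator clusterin, led the list at 1288 ± 57.1 CPM, and Cd59a followed Cr1l at 12.2 ± 0.0638 CPM. In all, 4 of 13 other regulators were detected, and Serping1 and Thbd were among those with no count. Of 20 measured complement components 5 were detected, with C3 highest at 11.1 ± 0.953 CPM.

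Prom1, which encodes the pentaspan protein CD133 of membrane protrusions, had 53 and 59 counts, or 1.49 CPM in replicate 1 (1.11 to 1.94) and 1.74 CPM in replicate 2 (1.32 to 2.24). It lies at 43993620 to 44102032 on chromosome 5, and only 3.85% of the detected genes were lower. Its paralogue Prom2 was far higher at 94.9 ± 4.47 CPM. Per length, Prom1 reached 0.0123 ± 0.00194 of the level of Prom2, or 1 part in 82.1 ± 12.9 (n = 2), and 1 part in 50.6 ± 7.97 by the longest transcripts. Of 15 other genes of apical protrusions 8 were detected, led by the membrane linker genes Ezr (471 ± 12.6 CPM) and Msn (370.5 ± 11.5 CPM) and the actin regulator gene Eps8 (255 ± 1.5 CPM). Of the windows of Prom1, 5.10% were shared with other transcripts, mostly with the antisense gene Gm16401, which overlaps it and had 1 count in each library.

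**Figure D2:**
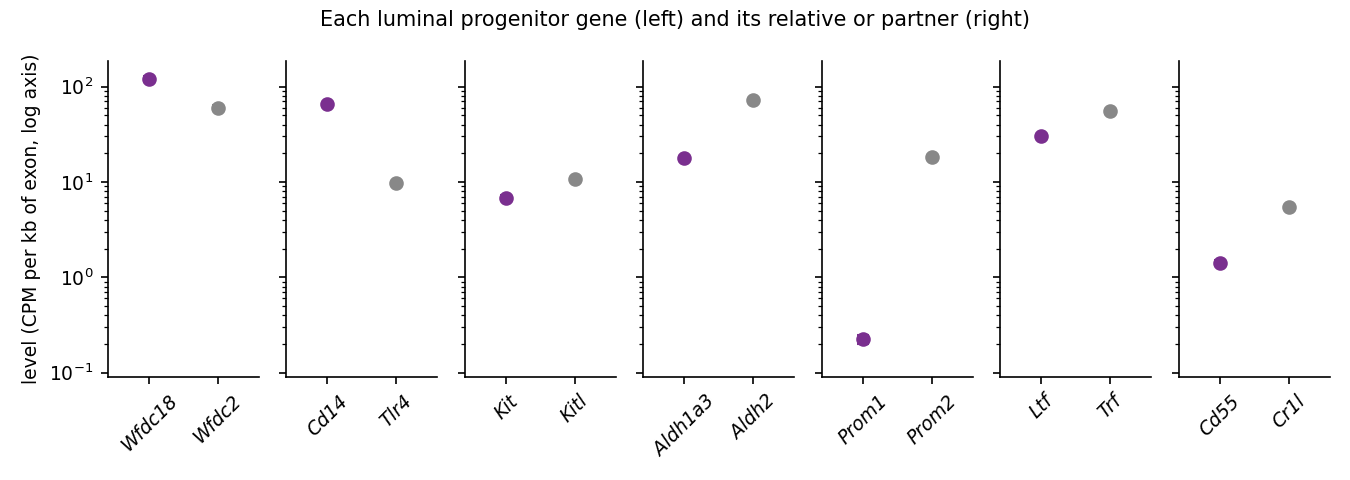
Level of each of 7 detected genes of the set (left, purple) and of a paralogue or partner (right, grey), in CPM per kb of exon on a shared log axis, as mean of 2 libraries with SD, which is mostly smaller than the point. Wfdc18 and Cd14 stand above their partners, and Kit, Aldh1a3, Prom1, Ltf and Cd55 below theirs. By the longest transcript, not drawn here, the ratio of Kit to Kitl was 0.985 in replicate 1 and 1.08 in replicate 2.

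The order of the 7 detected genes was the same per length as in CPM. In CPM per kb of exon it ran from Wfdc18 (121 ± 8.55) through Cd14 (65.3 ± 0.593), Ltf (30.1 ± 0.492), Aldh1a3 (17.9 ± 0.640), Kit (6.86 ± 0.403) and Cd55 (1.43 ± 0.0880) to Prom1 (0.225 ± 0.0249). The ranges of the 2 libraries did not overlap for any neighbouring pair in that order. The closest neighbours per length were Ltf and Aldh1a3, with a ratio of 1.68 ± 0.0328, and the widest gap was that of Cd55 to Prom1, with a ratio of 6.42 ± 1.10. The smallest p of an exact sign test over 2 libraries is 0.5, and no test was run.

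Tspan8, Ly6a and Ly6d had 0 counts in both libraries. At this depth 0 counts leave room for 3 counts, which is 0.0842 CPM for replicate 1 and 0.0885 CPM for replicate 2 (a one-sided limit, counting error only). The two-sided Poisson interval used for the other genes ends at 0.103 CPM for replicate 1 and 0.109 CPM for replicate 2. Tspan8 encodes a tetraspanin, one of a family of small proteins with 4 membrane passes that organise other membrane proteins. Its family was otherwise well represented, with 19 of 28 other measured genes detected. Cd81 (571 ± 27.8 CPM), Cd9 (507 ± 3.93 CPM), Cd82 (211 ± 3.42 CPM), Cd151 (158 ± 1.90 CPM) and Tspan9 (140.0 ± 2.87 CPM) were highest, and besides Tspan8 no count was found for Tspan6, Upk1b and the leukocyte gene Cd53. Ly6a encodes the surface protein Sca-1, and Ly6d a relative of it, both small proteins held to the membrane by a lipid (GPI) anchor. Of 31 other measured Ly6 and urokinase receptor-like genes 5 were detected and 15 had no count. The urokinase receptor gene Plaur (56.6 ± 0.105 CPM), the complement regulator gene Cd59a and Lypd3 (4.75 ± 0.667 CPM) led the list. The machinery that makes the anchor was complete in the measured genes, with 26 of 26 detected, led by Pigt (149 ± 4.98 CPM), Pigq (123 ± 6.66 CPM) and Pign (119 ± 3.50 CPM).

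**Figure D3:**
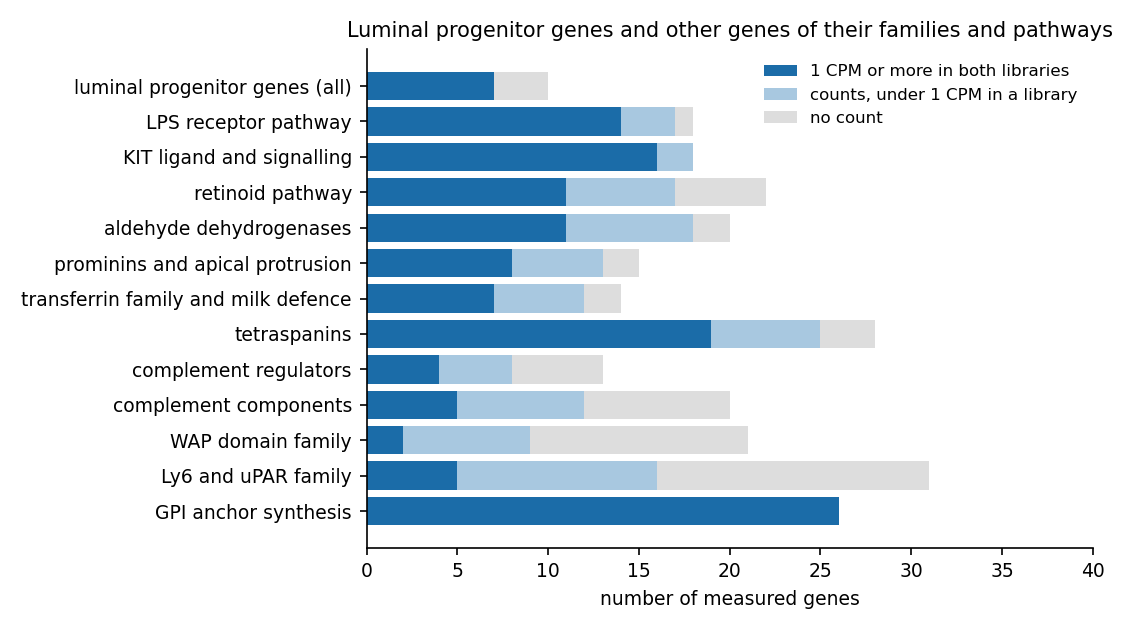
Number of measured genes at 1 CPM or more in both libraries (dark), with counts but lower (pale) and with no count (grey), for the 10 genes of the set and for the other genes of each family or pathway. All 26 genes of GPI anchor synthesis were detected, while 5 of 31 in the Ly6 family and 2 of 21 in the WAP domain family were.

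On chromosome 15 the genes around Ly6a and Ly6d were also below 1 CPM. Ly6d (74762056 to 74763620) and Ly6a (74994877 to 74998031) sit in one run of 23 neighbouring protein-coding genes below 1 CPM, 19 of them with no count. The run covers 892 kb between the last detected gene on the left, Them6 (mean 6.53 CPM), and the next on the right, Zfp41 (mean 15.4 CPM). The 4 genes with any count were Slurp1, Ly6e, BC025446 and Ly6f, none with more than 7 counts in a library. Ly6e, a family member within the run, had 3 counts in replicate 1 and 0 in replicate 2. Of the 50-base stretches of Ly6a 19.0% also occur elsewhere, mainly in Ly6c1, and of those of Ly6d none do. The part of shared reads in the 0 of Ly6a was not tested. The line comes from BALB/c mice and the build is that of another strain, and the part of strain differences in these zeros was not tested. Tspan8 (chromosome 10, 115816832 to 115849893) lies in a shorter run of 7 undetected genes, between Zfc3h1 at 384 kb on its left and Cnot2 at 635 kb on its right. Within that run 5 genes had no count, and Lgr5, the stem cell receptor gene that is used with Tspan8 as a marker, had 0 and 1 counts. Of the 6840 protein-coding genes with no count, the median gene sat in a run of 9 genes, so that long runs weigh more. Of these genes 32.5% sat in a run of at least 23 and 56.6% in one of at least 7.

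**Figure D4:**
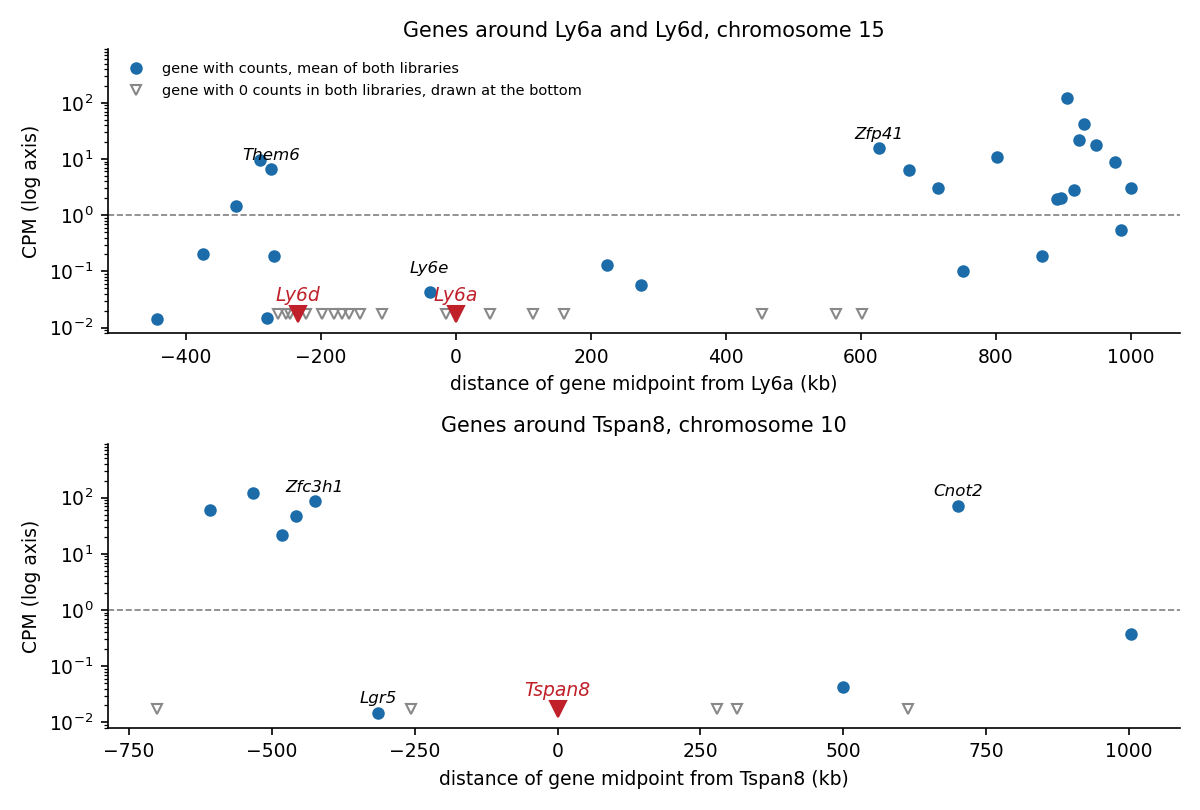
Level of protein-coding genes against the distance of their midpoint from Ly6a (upper panel) and from Tspan8 (lower panel), in CPM on a log axis, with genes that had 0 counts drawn as triangles at the bottom and the genes of the set in red. Ly6a and Ly6d lie in a run of 23 genes below 1 CPM that ends at Them6 and Zfp41, and Tspan8 lies in a run of 7 that ends at Zfc3h1 and Cnot2.

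Several of the 10 genes are also known from other cell types, so the markers of those cells were read in the same libraries. The marker lists were chosen with earlier results of these data known, and which cells gave the reads was not tested. Over all genes 37.7% were detected. Ltf is also a granule gene of neutrophils. None of 12 neutrophil markers was detected, and their summed level was 0.729 CPM in replicate 1 and 0.737 CPM in replicate 2. The highest were S100a8 (0.415 ± 0.0870 CPM) and Camp (0.131 ± 0.0656 CPM), Mpo had 3 and 1 counts and Elane none. Kit marks mast cells and pigment cells. None of 10 mast cell markers was detected, with a sum of 0.0842 and 0.0295 CPM and no count of Cpa3 and Mcpt4. Of 8 melanocyte markers 3 were detected, or 37.5%, which is close to the share of all genes. The list summed to 8.58 and 10.1 CPM, with Mlana at 4.41 ± 0.846 CPM and Mitf at 3.33 ± 0.167 CPM, while Dct and Tyr had no count. Cd14 marks macrophages. Of 12 macrophage markers Cd163 (20.9 ± 0.167 CPM) and Cd68 (9.43 ± 0.116 CPM) were detected, with sums of 32.0 and 31.8 CPM, and Ptprc, the pan-leukocyte gene, had no count. No marker was detected among 12 of endothelial cells (1.40 and 1.47 CPM in all, with Plvap highest at 0.749 ± 0.108 CPM and Cdh5 at 0) or among 12 of blood stem and lymphoid cells (0.140 and 0.324 CPM in all). Of 12 fibroblast markers Postn (11.5 ± 0.877 CPM) and Pdgfra (7.64 ± 1.08 CPM) were detected, with sums of 20.3 and 19.9 CPM. The collagen gene Col1a1 was at 0.784 ± 0.359 CPM, and Col1a2 was among 7 of the 12 with no count.

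Other mammary markers were read beside the set. Their lists were chosen with earlier results of these data known, so the shares detected are not a test of the label. Over all genes 37.7% were detected. Besides the 10 genes, 10 of 11 further luminal progenitor markers were detected, led by Lcn2 and the casein gene Csn3 (629 ± 15.9 CPM), with the transcription factor gene Elf5 at 275 ± 2.73 CPM and the Notch target Hey1 at 316 ± 3.59 CPM, and Rspo1 had no count. Of 12 hormone-sensing markers 5 were detected, or 41.7%, which is close to the share of all genes. They were led by Prlr (113 ± 1.63 CPM) and Prom2, and Esr1 was below the level of 3 counts and Pgr at 0. Of 12 basal markers Vim alone was detected (111 ± 7.78 CPM), with Mylk next at 0.926 CPM in replicate 1 and 1.42 CPM in replicate 2, and the basal keratin genes Krt5 and Krt14 were under 0.1 CPM. All 12 epithelial markers were detected, led by Krt18 (1217 ± 15.2 CPM) and Epcam (898 ± 4.77 CPM). In the same libraries the detected genes of the set stood beside other detected luminal progenitor markers. The genes of the set without a count were Tspan8, Ly6a and Ly6d.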

How the data were processed

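Per the labels' protocols, column-purified, DNase-treated RNA of TUBO cells went into stranded libraries of mRNA, 1 for each of 2 replicates. The authors deposited raw counts for 31017 gene symbols. Named in the submitters' processing notes, without their roles, are the build mm10, STAR 2.7.9a, FastQC 0.11.9, Cell Ranger 3.0.0, featureCounts and R 4.1.1. Annotation release, strand setting and treatment of multi-mapping reads: not given in the sources used here. For this reason levels of genes that share sequence or overlap are uncertain.

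Columns were assigned by the replicate number in the labels. CPM were computed from the deposited counts and edgeR TMM factors (edgeR 4.0.16, R 4.3.3). Intervals are exact 95% Poisson intervals and, without molecular identifiers, reflect counting error alone, as do the floors of 3 counts. Exonic lengths, gene positions and 50-base windows came from GENCODE M21 (GRCm38), where 98.1% of the genes had a single match. Promoters came from RefSeq, which matched 6 of the 10 genes; those of Ly6a, Ly6d, Cd14 and Aldh1a3 are not used here.

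The libraries were compared with a two-sided exact binomial test on 13336 genes kept by filterByExpr, since 1 library a side leaves no residual degrees of freedom for edgeR's quasi-likelihood test. On simulated counts with counting noise alone the test recovered 87 of 100 genes changed 2-fold and 87 of 100 changed 1.5-fold, and called 1 unchanged gene. No smaller change and no variation beyond counting noise was simulated. The simulation therefore does not cover differences such as the 1.10-fold one of Wfdc18. Alternatives were other scalings (total counts, upper quartile, DESeq2 1.42.0), other detection minimums, filters and lengths, and each library left out.

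The genes of the set, the lists and the rule for named genes were chosen with earlier results of these data known. The rule took the 10 genes, of each list the 3 most abundant genes, those of at least 100 CPM and those that differed between libraries, genes with no count, and of each marker list the 2 most abundant and the first 2 genes. Genes outside that rule (such as Tlr4, Ly96, Myd88, Ticam1, Ticam2, Kitl, Prom2, Wap, Lpo, Pigr, Rdh10, Rdh11, Aldh1a1, the Cyp26 genes, Ly6e and Lgr5), the partners for ratios, the neighbouring genes and the motifs were chosen after values were seen. C4a, Anos1, Ly6g2 and Pigy were listed and are not analysed here. Some genes of the lists are counted but not reported here by name.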

Additional observations from a re-analysis of the deposited data

How the results depend on the processing

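Detection of 7 of the 10 genes and the order of their levels were the same with total counts, DESeq2 size factors and upper-quartile factors, without each library and with the ribosomal RNA-related genes Gm26917 and Gm42418 left out of the total. With those 2 genes left out, the levels of the 7 detected genes were higher by more than the SD between libraries and the median of the 10 genes was 38.0 CPM in place of 34.0 CPM. That follows from the smaller total. A detection minimum of 5 CPM left 6 genes and one of 10 CPM left 5. The call of Wfdc18 between libraries held under the other scalings and filters. It was lost when a dispersion was estimated over all genes tested from the differences between the same 2 libraries. That spread takes in the tested differences and leaves few calls. edgeR's exact test called 0 genes of the set and 15 of all genes, and DESeq2's Wald test called 0 of the set and 0 of all genes. At an unadjusted p under 0.05 these tests gave 1 and 0 genes of the set, and the binomial test gave 2. Leaving out each replicate gave medians of 32.9 and 35.1 CPM. Of the ratios to partners, that of Kit over Kitl turned to 1.03 with the longest transcript length, with 0.985 in replicate 1 and 1.08 in replicate 2. The run around Ly6a held 33 genes at a detection minimum of 10 CPM and 23 at 0.5 and 5 CPM, which was added after seeing the data. No paired analysis was possible because there is 1 group. Depth limits Prom1, whose counts were 53 and 59, and the genes with no count.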

Other observations

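Outside the comparisons above, genes on the family and pathway lists also differed between the libraries by the binomial test, which called 8.13% of all genes tested, 489 of them higher and 595 lower in replicate 2. Lower in replicate 2 were Tab2 (log2 ratio -0.11), Lbp (-0.11), Rxra (-0.10), Aldh2 (-0.09), Ezr (-0.05), Msn (-0.06), Rdx (-0.07), Slc9a3r1 (-0.11), Mfge8 (-0.09), Trf (-0.14), Cd81 (-0.10), Clu (-0.09), Pigq (-0.11) and Dpm2 (-0.22). Cbl (0.22) and Wfdc2 (0.13), a family member of Wfdc18, were higher in replicate 2. The balance of directions over all genes depends on the scaling, with 374 higher and 921 lower by total counts and 532 higher and 538 lower by upper-quartile factors. The differences are measured against counting error alone.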
